A study of Mus musculus with 12 samples.

Results

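Peak lists of flow-sorted mitotic chromosomes were compared between wild-type (WT) mouse embryonic stem cells (ESCs) and Suv39h double-null (Suv39h dn) ESCs, 2 libraries of each, which are 4 of the 12 ATAC-seq libraries of the study. A protein-coding gene was counted as called in a library when a peak summit lay within 1 kb of one of its start sites, and intronic and distal regions were peaks of the 4 lists merged where they overlapped or touched. The members are the genes and regions called in both libraries of one genotype and in neither library of the other. They came to 349 Suv39h dn-only and 522 WT-only genes of 21938 protein-coding genes, to 773 and 927 of 40926 intronic regions, and to 1068 and 1430 of 55788 distal regions.

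WT and Suv39h dn were each represented by 1 ESC line grown with serum and leukaemia inhibitory factor, so a difference between genotypes and a difference between lines cannot be told apart. Suv39h dn ESCs lack both H3K9 methyltransferases Suv39h1 and Suv39h2. Demecolcine, which blocks spindle assembly, was given to both lines to collect mitotic ESCs. Sorted chromosomes were prepared from such cells and separated on a flow sorter by their fluorescence with the DNA dyes Hoechst 33258 and Chromomycin A3. The other 8 libraries came from asynchronous and mitotic ESCs of the same lines, 2 for each, and served here as an independent reading of the members. Nothing in the labels says that the libraries of a group came from separate cultures, so p-values measure only the spread between these libraries, which may be technical.

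In ATAC-seq a transposase cuts accessible DNA, and fragments pile up at open promoters and enhancers. Suv39h1 and Suv39h2 place trimethylation on lysine 9 of histone H3, the mark of constitutive heterochromatin at pericentric satellite repeats and at many transposable elements, which is bound by HP1 proteins. Most transcription stops and most transcription factors leave the chromosomes in mitosis, while many promoters stay accessible.

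The 4 chromosome lists held 46355 and 67027 peaks in WT against 59444 and 44885 in Suv39h dn. The list fold is the pileup at the summit plus 1 over the local background plus 1, and together with the p-value of a peak it gave a whole fragment count at the summit for 100% of peaks with a −log10 p under 60. The lowest background of a library, a measure of relative depth, was 0.187 and 0.328 fragments per base in WT against 0.198 and 0.268 in Suv39h dn. WT 2 was thus the deepest library and gave the longest list. A gene not called in a library is a gene without a peak at a q-value of 0.05, and the lists do not say how many fragments lay there. For Suv39h2 a promoter peak stood in all 4 chromosome libraries, with 5 and 11 fragments in WT against 4 and 7 in Suv39h dn. The Suv39h1 promoter had none in any of the 4. In cells, both promoters were called in 1 asynchronous and 1 mitotic WT library and in 0 Suv39h dn libraries. Which exons are deleted is not given in the sources used here, so these peaks do not check the genotype.

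Sequences are shown for the promoters and regions that carried the strongest genotype-only calls, as 151-bp windows of the reference genome GRCm38 centred on the strongest summit. They are the 2 highest-ranking promoter windows per direction that touch no annotated UTR, the highest-ranking intronic and distal region per direction, and the highest-ranking region in Mid1 per direction. Capitals mark CpG dinucleotides, which are dense in most active promoters and rare elsewhere in mammalian genomes. In sorted chromosomes 97.2% of the summit windows of called promoters held a CpG, with a median of 9 per window, against 80.3% of all intronic and 78.5% of all distal windows, with a median of 2 in both.
Gjd3 promoter, Suv39h dn-only, chr11:98983752-98983902, minus strand: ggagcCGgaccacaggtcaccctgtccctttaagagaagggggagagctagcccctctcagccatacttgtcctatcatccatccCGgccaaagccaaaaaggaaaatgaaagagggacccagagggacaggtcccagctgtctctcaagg
Prpf31 promoter, Suv39h dn-only, chr7:3630270-3630420, plus strand: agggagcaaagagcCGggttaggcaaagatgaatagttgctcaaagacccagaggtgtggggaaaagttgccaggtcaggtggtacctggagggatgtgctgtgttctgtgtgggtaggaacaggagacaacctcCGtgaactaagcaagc
Efl1 intron, Suv39h dn-only, chr7:82771253-82771403, plus strand: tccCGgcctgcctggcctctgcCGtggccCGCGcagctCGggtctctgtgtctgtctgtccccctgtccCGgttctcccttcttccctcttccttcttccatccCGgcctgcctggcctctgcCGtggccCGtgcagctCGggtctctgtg
Distal region near Gm47283, Suv39h dn-only, chrY:90772349-90772499, plus strand: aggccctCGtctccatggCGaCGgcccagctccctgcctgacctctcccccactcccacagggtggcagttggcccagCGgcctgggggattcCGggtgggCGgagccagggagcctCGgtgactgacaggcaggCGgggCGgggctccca
Mid1 intron, Suv39h dn-only, chrX:169998022-169998172, plus strand: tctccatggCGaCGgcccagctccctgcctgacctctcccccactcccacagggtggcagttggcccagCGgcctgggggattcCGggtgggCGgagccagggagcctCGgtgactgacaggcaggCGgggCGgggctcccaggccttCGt
Klf14 promoter, WT-only, chr6:30958502-30958652, minus strand: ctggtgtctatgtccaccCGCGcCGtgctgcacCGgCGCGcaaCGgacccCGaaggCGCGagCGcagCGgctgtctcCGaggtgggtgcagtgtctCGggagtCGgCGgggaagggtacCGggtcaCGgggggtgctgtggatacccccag
Ndufs4 promoter, WT-only, chr13:114387620-114387770, minus strand: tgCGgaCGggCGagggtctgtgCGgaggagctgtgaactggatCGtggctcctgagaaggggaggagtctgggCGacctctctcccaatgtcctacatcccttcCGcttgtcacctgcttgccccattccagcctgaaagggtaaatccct
Col25a1 intron, WT-only, chr3:130359642-130359792, plus strand: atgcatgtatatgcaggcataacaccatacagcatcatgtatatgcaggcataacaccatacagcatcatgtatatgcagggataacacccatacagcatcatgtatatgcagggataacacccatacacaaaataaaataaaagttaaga
Distal region near Mfng, WT-only, chr15:78753107-78753257, plus strand: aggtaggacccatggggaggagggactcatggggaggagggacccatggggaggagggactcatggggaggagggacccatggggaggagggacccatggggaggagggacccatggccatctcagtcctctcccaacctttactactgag
Mid1 intron, WT-only, chrX:169992641-169992791, plus strand: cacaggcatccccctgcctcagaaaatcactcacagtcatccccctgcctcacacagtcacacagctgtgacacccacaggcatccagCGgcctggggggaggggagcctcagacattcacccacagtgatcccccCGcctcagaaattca
The windows in Mid1 and near Gm47283 that were called in Suv39h dn alone overlap in sequence although one lies on X and the other on Y. The 4 promoter windows held 2, 2, 18 and 7 CpGs in the order shown. For promoters the genotype-only label is that of the gene, not of the printed stretch. The strongest summit of Suv39h dn 1 lay outside the window for Gjd3, at chr11:98982800, and for Prpf31, at chr7:3630536. For Ndufs4 that of WT 1 lay outside, at chr13:114388005. The Klf14 window holds the strongest summits of both WT libraries. The windows near Mfng and in Col25a1 held none.

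The first comparison asked how many promoters stayed accessible on the chromosomes of each genotype. Promoter peaks were found for 7642 and 10614 genes in the WT libraries and for 8769 and 8711 genes in the Suv39h dn libraries. Both Suv39h dn values lay between the WT values. The means were 9128 ± 2102 in WT and 8740 ± 41 in Suv39h dn (SD, n = 2 each), a log2 difference of −0.04 with p = 1 in a two-sided exact permutation test over 6 arrangements. The smallest p that 2 against 2 libraries allow is 0.333, so the design cannot reach 0.05. Without WT 2 the difference turned to 0.19. In all 4 libraries 4272 genes were called, which is 19.5% of protein-coding genes, and in none 8291, which is 37.8%.

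The second comparison asked which promoters were called in one genotype alone. The 349 Suv39h dn-only genes are 1.59% of all genes and the 522 WT-only genes 2.38%. To set these counts beside the variation between libraries, the same count was made for each mixed pair of 1 WT and 1 Suv39h dn library. WT 1 with Suv39h dn 1 gave 265 genes and WT 1 with Suv39h dn 2 gave 195. WT 2 with Suv39h dn 1 gave 763 and WT 2 with Suv39h dn 2 gave 815. Both genotype counts lay within the range of the mixed pairs, and the larger mixed counts both included WT 2.

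Cutting every list to its 44885 strongest peaks brought the genotype counts to 460 genes in Suv39h dn and 464 in WT, and the mixed pairs to between 308 and 768. In the lists as deposited, the share of genes called in either library that were called in both was 53.9% for the WT pair and 55.0% for the Suv39h dn pair. The mixed pairs lay between 50.7% and 60.5%. With equal list lengths the shares were 53.4%, 52.2% and 48.7% to 58.7%, so the order of the genotypes turned. The pair with the highest share was WT 2 with Suv39h dn 2 in both settings.

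**Figure D1:**
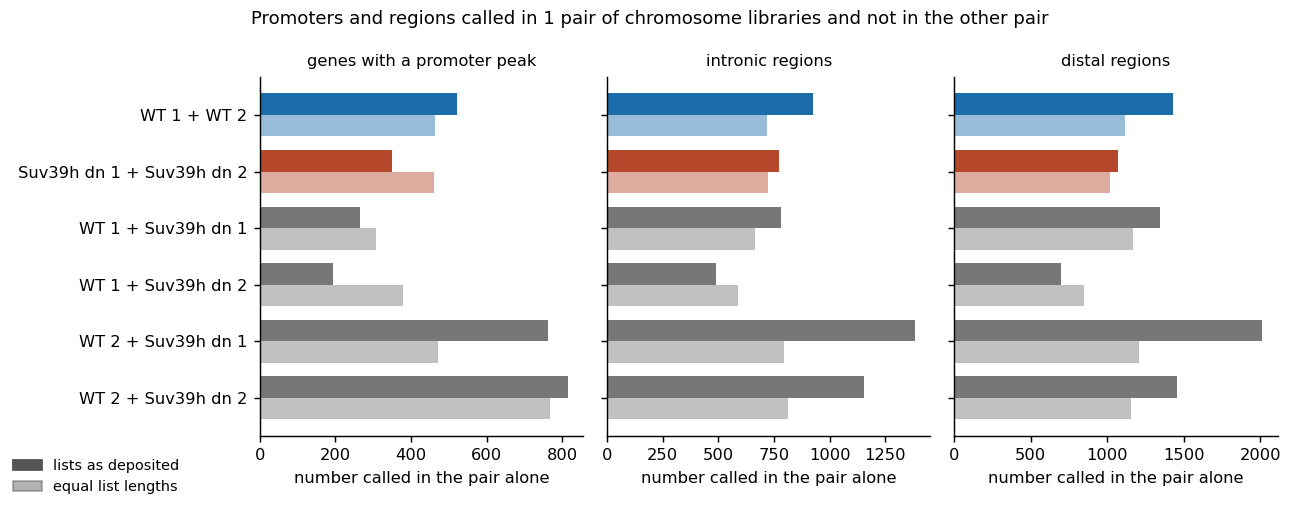
Number of genes with a promoter peak, of intronic regions and of distal regions (horizontal axes) called in both libraries of a pair and in neither of the other 2, for the 6 pairs of sorted chromosome libraries. Blue and red bars are the pairs of 1 genotype, grey bars the mixed pairs, and paler bars the same counts with all lists cut to 44885 peaks; each genotype bar for the deposited lists lies within the range of the grey bars.

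The genotype-only genes were called from few fragments. Summits of the Suv39h dn-only genes held between 3 and 13 fragments in Suv39h dn 1, with a median of 5, and between 4 and 15 in Suv39h dn 2, with a median of 7. The WT-only genes held between 3 and 15 in WT 1 and between 4 and 23 in WT 2, with the same medians of 5 and 7. Genes called in all 4 libraries had medians between 6 and 9 and reached 118 fragments in WT 2. The sets therefore held none of the highest promoter peaks.

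Nearby calls in the other genotype were common, with a peak of the other genotype within 2 kb of a start site for 55 of the 349 and 97 of the 522 genes. At the edge of the 1-kb rule stood Cdk5r2, at 993 bp, in Suv39h dn and Chst14, at 1000 bp, in WT. The nearest genes left out were Trpc5, at 1052 bp, and 1110002E22Rik, at 1028 bp. With the lists cut to equal lengths, 264 of the Suv39h dn-only and 386 of the WT-only genes were still genotype-only. With only peaks at a q-value of 1e-05 or lower in all 4 lists, 2 and 5 of them were, although 149 and 166 genes then formed the sets, the others of which had a weaker peak in the other genotype. Myg1 was genotype-only in Suv39h dn under these and both other start site distances, and Cldn22, Lzts1, Cx3cl1 and Ndufs4 were in WT. The WT peaks of Lzts1, a zipper protein described as a tumour suppressor, lay at different start sites of the gene in the 2 libraries.

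The promoters ranked highest in Suv39h dn, by the lower of the −log10 p percentiles in the 2 libraries, belonged to genes of unrelated functions. Myg1, which encodes an RNA exonuclease, held 11 fragments in Suv39h dn 1 and 10 in Suv39h dn 2, with folds of 9.28 and 7.42, and had no peak in either WT library. Gjd3, a gap junction connexin, held 12 and 14, at summits 216 and −811 bp from the start site. The 1-kb rule does not ask for a shared peak, so the 2 counts of a gene can come from different peaks. Prpf31, a splicing factor of the U4/U6 small nuclear ribonucleoprotein, and Tfpt, a subunit of the INO80 chromatin remodeller, share their summits, with 9 and 13 fragments. The highest counts in the whole Suv39h dn-only set were 13 and 15 in the 2 libraries, so these promoters stood near its top.

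Pdgfra, the platelet-derived growth factor receptor alpha and one of the fibroblast markers, held 8 and 10 fragments. Cpne3, a calcium-dependent membrane-binding protein, held 6 and 9, at summits 520 and 112 bp past the start site. Zfp960, a zinc-finger gene, also held 6 and 9. Pdcd6, a calcium-binding protein, Rtl4, a gene derived from a retrotransposon, and Tfpi2, a protease inhibitor, each held 6 and 7. In the cell libraries Zfp960 was called in all 8 and Pdcd6 in both asynchronous libraries and 1 mitotic library of each genotype. Rtl4 was called in none of the 8. Pdgfra was called in both asynchronous WT libraries and in 1 of Suv39h dn.

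In WT the highest-ranking promoter was that of Klf14, a Krüppel-like transcription factor, with 9 fragments in WT 1 and 12 in WT 2 and folds of 7.97 and 8.58. Its summits lay 458 and 501 bp past the start site. At 2 kb it was no longer WT-only. Cldn22, a tight junction claudin, held 10 and 16, and its summit window has 1 further exact copy in the genome, so its reads could be placed at either. Cx3cl1, the chemokine fractalkine, held 15 and 16 fragments, and Ndufs4, a subunit of respiratory complex I, held 7 and 9. In WT 1 and WT 2 the summits lay 58 and 325 bp past a start site for Cx3cl1 and 45 and 355 bp for Ndufs4.

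Of the others, Tspan18, a tetraspanin, held 8 and 13 fragments, at summits 705 and 335 bp past a start site, and Fam124a held 8 and 11. Pprc1, a transcriptional coactivator related to PGC-1, held 7 and 12, and Zfp62, a zinc-finger gene, held 6 and 10. The Pprc1 summits lay at different start sites of the gene, at chr19:46056795 in WT 1 and chr19:46057297 in WT 2. Ndrg3 held 6 and 9 and Rpa2, a subunit of the single-stranded DNA-binding protein RPA, held 6 and 8. Klf14 and Cldn22 were called in none of the 8 cell libraries, whereas Ndrg3 was called in both asynchronous libraries of each genotype and Rpa2 in 1 of WT and both of Suv39h dn. A promoter called in 1 genotype alone on chromosomes was thus often called in cells of the other genotype.

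**Figure D2:**
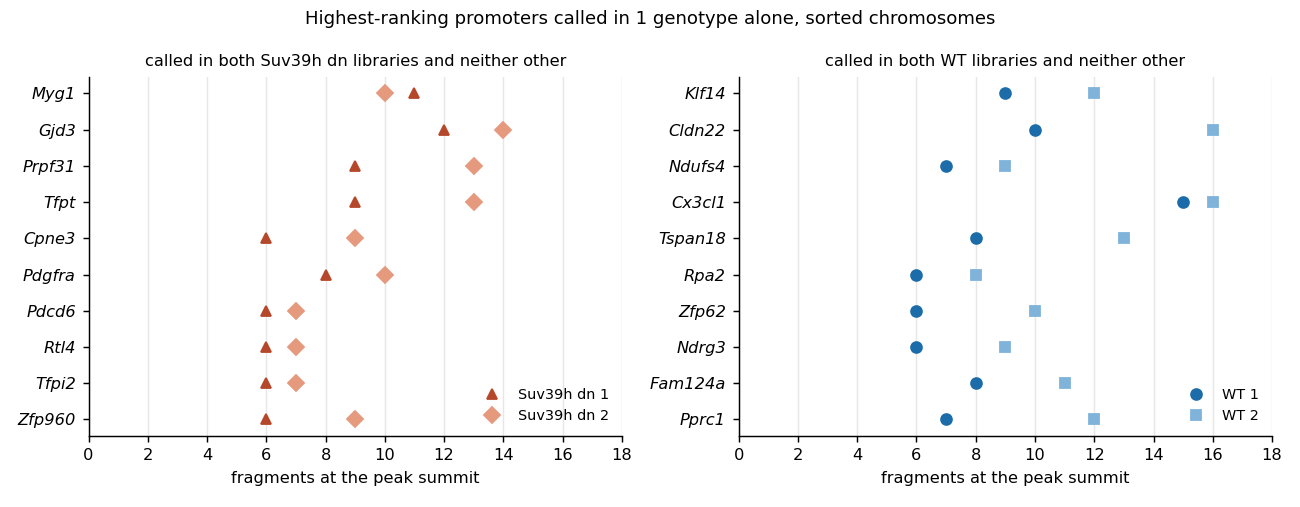
Whole fragments at the peak summit (horizontal axis) in each library for the 10 highest-ranking genes called in both Suv39h dn libraries (left) or both WT libraries (right) of sorted chromosomes and in neither library of the other genotype. Each point is 1 library; all 20 genes lie between 6 and 16 fragments, and no point exists in the other genotype because no peak was called there.

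Gene lists of chromatin factors showed few genotype-only promoters. Over all protein-coding genes between 34.8% and 48.4% were called per library. Of 33 genes of H3K9 methylation and HP1, 19 and 27 were called in WT and 23 in each Suv39h dn library, which is 57.6% to 81.8%. Only Phf8, a demethylase, was WT-only, with 3 and 5 fragments, which is 3.03% of the list against 2.38% of all genes, and none was Suv39h dn-only. Of 38 Polycomb genes, which place and bind trimethylation on lysine 27 of histone H3, 18 and 22 were called in WT and 22 in each Suv39h dn library, which is 47.4% to 57.9%. Phf19, an accessory subunit of Polycomb repressive complex 2, was Suv39h dn-only, with 5 and 6 fragments, which is 2.63% of the list against 1.59% of all genes. In both lists the Suv39h dn values lay at or between the WT values.

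Of 23 genes of LSD1, the NuRD complex and partners of Esrrb, 14 and 19 were called in WT against 16 and 15 in Suv39h dn. Chd4, the main remodeller of NuRD, was Suv39h dn-only with 6 fragments in each library. Rcor2, a corepressor that binds LSD1, was Suv39h dn-only with 9 and 12. Chd3, a paralogue of Chd4, was WT-only with 5 and 11. Of 20 genes of DNA methylation, the methyl-CpG-binding protein gene Mbd2 was Suv39h dn-only, with 7 and 6 fragments, and its relative Mbd3 was WT-only, with 5 and 8. These single genes are 2 of 23 and 1 of 20 against the background of 1.59%, and 1 of 23 and 1 of 20 against 2.38%.

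Genes of mitotic chromosome structure gave the same picture. Of 30 genes of condensin, cohesin and chromosome structure, 16 and 24 were called in WT against 21 and 22 in Suv39h dn. Only the cohesin subunit gene Smc1a was Suv39h dn-only, with 5 and 4 fragments, which is 3.33% of the list against 1.59% of all genes. Of 32 genes of Aurora B, phosphorylation of histone H3 serine 10 and mitotic kinases, none was genotype-only. Of 10 linker histone genes, Hist1h1b, with 5 and 7 fragments, was Suv39h dn-only, which is 1 gene or 10% of a short list against 1.59% of all genes. It belongs to a cluster of similar genes, and whether its reads were hard to place was not tested.

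Of 30 pluripotency factor genes, 13 and 21 were called in WT against 13 and 15 in Suv39h dn. Nr5a2, an orphan nuclear receptor of the naive state, was WT-only with 6 and 8 fragments. None was Suv39h dn-only. The Esrrb promoter was called in WT 2 alone, with 6 fragments at a summit at −956 bp from the start site. Sox2 was called in WT 2, with 10 fragments, and in both Suv39h dn libraries, with 7 and 9. Tbx3 was called in the same 3 libraries, with 6 fragments in WT 2 and 7 and 5 in Suv39h dn. Tead4 was called in both WT libraries, with 5 and 6, and in Suv39h dn 2, with 10. None of these factor genes separated the genotypes.

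Markers of ESCs were called for 4 and 9 of 10 genes in WT and for 5 in each Suv39h dn library, against 1 and 3 of 10 fibroblast markers in WT against 3 and 4 in Suv39h dn. An open promoter does not by itself mark a cell type, and fewer chromosomes and less accessible DNA per chromosome cannot be told apart in such lists. Among germline genes that somatic cells silence, 8 and 15 of 30 were called in WT against 10 and 12 in Suv39h dn, with none genotype-only. Of 22 genes of the two-cell stage, between 2 and 3 were called in each library and none was genotype-only. Of 39 Hox genes 7 and 17 were called in WT against 10 and 16 in Suv39h dn, and of 57 clustered protocadherin genes between 2 and 5, with none genotype-only in either list.

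Larger gene families gave more members. Of 365 zinc-finger genes named Zfp, many of which encode KRAB repressors of transposable elements, 15 were WT-only (4.11%) and 3 Suv39h dn-only (0.822%). Over all genes these shares were 2.38% and 1.59%. The Zfp genes were called in 135, 214, 157 and 149 cases in WT 1, WT 2, Suv39h dn 1 and Suv39h dn 2. The mixed pairs held 3 with either pairing of WT 1, 23 for WT 2 with Suv39h dn 1 and 20 for WT 2 with Suv39h dn 2. The WT-only count thus lay within the range of mixed pairs, and pairs with WT 2 held the most. Of the 15, Zfp62 had the highest rank. The 3 in Suv39h dn were Zfp960, Zfp970 and Zfp971, of which the last pair was named after the values had been seen.

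The genes of the next families were named after their values had been seen. Of 83 ribosomal protein genes 4 were Suv39h dn-only, among them Rps20, Rps26 and Rps28, which is 4.82% against 1.59% of all genes, and none was WT-only, against 2.38%. The mixed pairs held between 0 and 6. Of 61 replication-dependent histone genes, 3 were Suv39h dn-only (Hist1h2ae, Hist1h2bg and Hist1h3c) and 5 WT-only (Hist1h2ad, Hist1h2an, Hist1h2bf, Hist1h2bh and Hist1h2bp), which is 4.92% and 8.20%, with 0 to 4 in the mixed pairs. Genes of this family resemble each other in sequence, but copies of their windows were not searched for. Whether their reads were placed correctly was not tested. Of 1093 olfactory receptor genes, between 19 and 38 were called per library, with 1 Suv39h dn-only (Olfr455) and 3 WT-only (Olfr523, Olfr525 and Olfr1298). These are 0.0915% and 0.274%, below the 1.59% and 2.38% of all genes. Of 327 vomeronasal receptor genes no more than 4 were called in a library, and of 121 keratin-associated and defensin genes between 7 and 17. Of the latter, 3 were WT-only (Defb28, Krtap2-4 and Krtap5-5), and their 2.48% is close to the 2.38% of all genes.

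**Figure D3:**
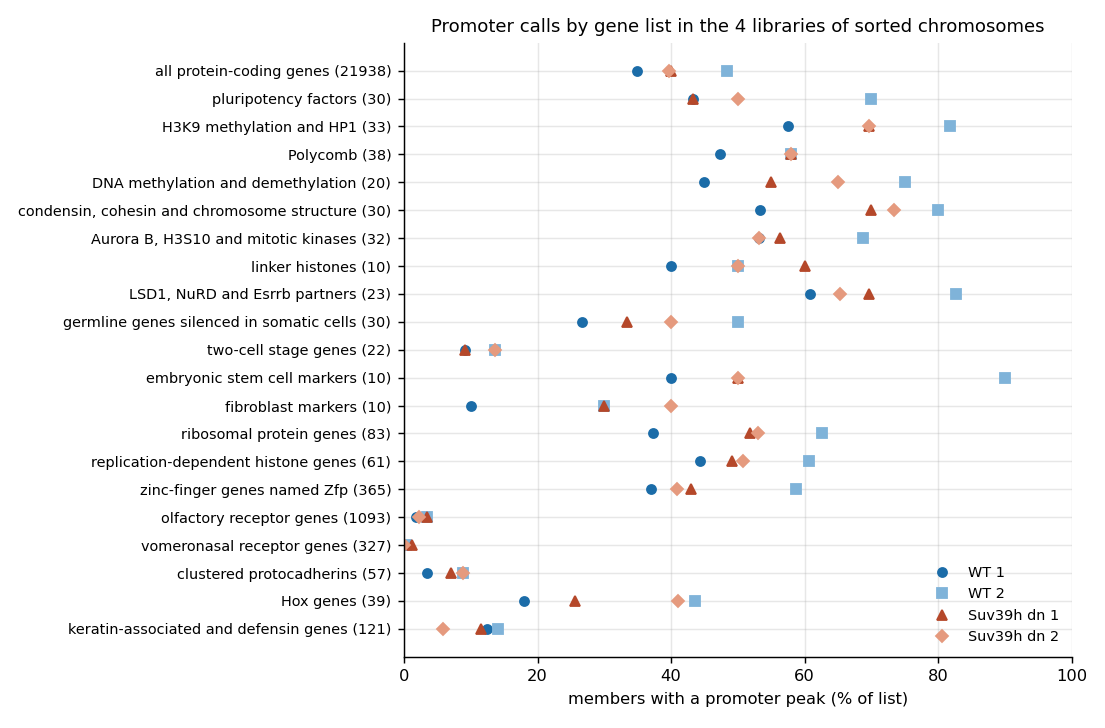
Share of the members of each gene list with a promoter peak (horizontal axis, percent of the list, number of members in brackets) in the 4 libraries of sorted chromosomes, 1 point per library. WT 2 is the highest or joint highest point in most lists, as over all 21938 protein-coding genes.

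The third comparison concerned regions away from start sites. Of the intronic regions, 80.0% were called in 1 library alone, and of the distal regions 76.8%. Suv39h dn-only were 773 intronic regions (1.89%) and 1068 distal regions (1.91%), and WT-only were 927 (2.27%) and 1430 (2.56%). Regions called in all 4 libraries were 935 intronic (2.28%) and 1893 distal (3.39%), so regions shared by all were about as rare as genotype-only regions. The mixed pairs held between 488 and 1384 intronic and between 699 and 2014 distal regions. Both genotype counts of each class lay within those ranges.

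With equal list lengths the Suv39h dn-only counts were 722 intronic and 1015 distal and the WT-only counts 719 and 1117, and the mixed pairs held 589 to 813 and 851 to 1207. At a q-value of 1e-05 or lower, 56 and 68 intronic regions were left in Suv39h dn and WT, and 160 and 108 distal regions. The order of the genotypes among distal regions thus turned with the threshold. The mixed pairs then held 20 to 148 intronic and 38 to 374 distal regions, so the genotype counts again lay within their range.

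Intronic members lay in 664 genes for Suv39h dn and in 770 for WT, with 134 genes holding both. The gene with the most of both was Gm20388, a 4435-kb model on chromosome 8 that spans many other genes, with 9 Suv39h dn-only and 12 WT-only of its 830 regions. Each mixed pair held more there, between 14 and 54. Mid1, a microtubule-binding ubiquitin ligase on X, followed with 8 Suv39h dn-only and 3 WT-only of only 19 regions, with 0 to 2 in the mixed pairs. Dock9, an exchange factor for Cdc42, held 6 Suv39h dn-only and 0 WT-only of 41, with 0 to 3 in the mixed pairs. In WT, Gpc5, a glypican, held 6 of 103 with 1 Suv39h dn-only, while Casz1 and Cdh13 held 5 each, with 0 and 2 Suv39h dn-only. The mixed pairs held 1 to 6 in Gpc5, 0 to 2 in Casz1 and 0 to 6 in Cdh13, so the WT-only counts of Gpc5 and Cdh13 lay within the mixed range. Casz1 is a zinc-finger factor, and Cdh13 is a cadherin. These host genes were picked for their high genotype-only counts, and genes were not picked in the same way for the mixed pairs. A count above the mixed range in such a gene is therefore no evidence of a genotype difference.

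The strongest intronic region in Suv39h dn lay in Efl1, a GTPase of ribosome maturation, at chr7:82771235-82771438. It held 23 and 39 fragments, with folds of 15.4 and 20.5, and no WT chromosome library had a peak there. It was also called in all 4 cell libraries of Suv39h dn and in none of WT. The window shown above holds 10 CpGs and has no second exact copy in the genome. The second lay in Cdca7l, a partner of Myc, at chr12:117861381-117861646, with 21 and 25 fragments. It was called in none of the 8 cell libraries.

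In WT the strongest region of all was distal, at chr15:78753072-78753219, 20293 bp from a start site of Mfng, a glycosyltransferase that modifies Notch. Its folds were 23.7 and 23.9, at p-values beyond the range in which whole fragments were recovered, and it was called in 3 of 4 WT cell libraries and in none of Suv39h dn. A region 578193 bp from Lcorl, at chr5:46435774-46435835, held 27 and 31 fragments, with folds of 23.6 and 24.1, and was called in no cell library. A region 31578 bp from Tbc1d2b, at chr9:90302323-90302388, held 13 and 19 fragments and was called in no cell library, and one near Neto1, with 15 and 18, was called in 3 WT and 2 Suv39h dn cell libraries.

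The strongest intronic regions of WT were in Col25a1, a membrane collagen of neurons, with 10 and 14 fragments, and in Grhl2, an epithelial transcription factor, with 12 and 16. The next outside Mid1 was in Med23, a Mediator subunit, with 11 and 12. Their cell libraries held 1 call in all, in WT at Col25a1. In Suv39h dn, distal regions 88734 and 78932 bp from Hrh1, a histamine receptor gene, held 32 fragments in each library and 23 fragments in each library. Neither was called in cells, and their windows have 2 and 1 further exact copies in the genome. A distal region 38929 bp from Bdnf, a neurotrophin, held 8 and 12 fragments, and an intronic region of Dok6, an adaptor protein, held 9 and 10. The Dok6 window has 7 further exact copies in the genome, so its reads could be placed at any of them.

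Mid1 was set apart by its position. In laboratory mice the gene crosses the pseudoautosomal boundary, past which X and Y carry the same sequence. Its Suv39h dn-only regions lay between chrX:169991209 and chrX:169998373 and held 16 to 34 fragments in Suv39h dn 1 and 17 to 40 in Suv39h dn 2. The 3 WT-only regions, at chrX:169992666-169992787, chrX:169999574-169999643 and chrX:170002669-170002768, held 16, 8 and 15 fragments in WT 1 and 20, 11 and 23 in WT 2. Regions of opposite genotype thus stood within a few kilobases of each other.

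The end of Y held the counterparts. Of 49 Suv39h dn-only regions on X, 7 had an exact copy of their 151-bp window at the end of Y, and of 22 on Y, 10 had one at the end of X. Of the 61 and 78 WT-only regions on X and Y, 4 and 5 had such a copy. Between the first and the last of these regions, the 26.4 kb on X held 27 regions of all classes, of which 8 were Suv39h dn-only, 6 WT-only and 3 called in all 4 libraries. The 26.7 kb on Y held 24, with 11 Suv39h dn-only, 7 WT-only and 1 called in all. The mixed pairs held 2 regions on X, both in WT 2 with Suv39h dn 2, and 0 on Y. The stretches were drawn around genotype-only regions, so the mixed counts there are not an independent comparison. Reads of an exact copy can be placed on either chromosome, so the regions on X and Y are not independent.

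The highest Suv39h dn-only regions there were at chrX:169998048-169998133, with 34 and 40 fragments, and at chrY:90772386-90772473, with 31 and 37. Each was called in all 4 Suv39h dn cell libraries and in none of WT. In the same way, the WT-only regions at chrX:169992666-169992787 and chrY:90766948-90767063, with 16 and 20 and with 14 and 19 fragments, were each called in 3 of 4 WT cell libraries and in none of Suv39h dn.

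Regions seen in cells of one line and never in the other were rare. Over all 96714 intronic and distal regions, 28 were called in at least 3 of 4 cell libraries of Suv39h dn and in none of WT, and 18 the other way. Of the 1841 Suv39h dn-only regions 7 showed the Suv39h dn pattern and 1 the WT pattern, and of the 2357 WT-only regions 4 showed the WT pattern and 1 the Suv39h dn pattern. Among the 4 mixed pairs, with 1187 to 3398 regions, each pattern was seen in 0 or 1. Of the 2828 regions called in all 4 chromosome libraries, 9 showed the Suv39h dn pattern and 6 the WT pattern, so neither pattern was particular to the genotype-only sets. Those of the genotype-only sets with matching direction were 5 regions at the ends of X and Y, Efl1 and an intronic region of Gm5796 in Suv39h dn, and 3 regions at the ends of X and Y and the region near Mfng in WT. Those of opposite direction were near Med13l, in the Suv39h dn set, and in Slc2a10, in the WT set. These 13 were named after their values had been seen. Among promoters, 0 of 349 Suv39h dn-only genes and 0 of 522 WT-only genes showed the matching pattern, and Syap1 and Preb showed the opposite one.

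The fourth comparison asked whether the chromosome-derived sets were also called more in cells of the matching genotype. In each cell library the share of the Suv39h dn-only set that was called was divided by the share of the WT-only set, on a log2 scale. For promoters the asynchronous libraries called 128 and 221 of the 349 Suv39h dn-only genes in WT against 127 and 226 in Suv39h dn. They called 168, 319, 172 and 340 of the 522 WT-only genes. The log2 ratio was 0.19 and 0.05 in WT against 0.14 and −0.01 in Suv39h dn. In mitotic ESCs it was 0.32 and 0.23 in WT against −0.48 and 0.06 in Suv39h dn. The value of −0.48 rests on 12 of 349 and 25 of 522 genes in the shortest list.

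Over both preparations the mean was 0.20 ± 0.11 in WT and −0.07 ± 0.28 in Suv39h dn (SD, n = 4 each), a difference of −0.27 with p = 0.111 in a two-sided exact permutation test over 36 arrangements, which exchanged genotypes within preparations. The smallest p of that test is 0.0556. The direction of the difference was opposite to the genotype of the sets, and it did not pass the test. Most members of both sets were called in cells, 253 of 349 (72.5%) and 395 of 522 (75.7%) in at least 1 of the 8 libraries, against 59.5% of all genes. All genes include those called in no chromosome library. For the mixed pairs the share was 69.1% to 75.9%, so both sets lay within the mixed range.

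For intronic and distal regions the shares were lower. At least 1 cell library called 232 of 1841 Suv39h dn-only regions (12.6%) and 341 of 2357 WT-only regions (14.5%), against 8.97% of all such regions and 48.7% of those called in all 4 chromosome libraries. For the mixed pairs the share was 10.2% to 15.0%, so both sets lay within the mixed range. In asynchronous ESCs 32 and 84 Suv39h dn-only and 67 and 161 WT-only regions were called in WT, and 38 and 183 and 69 and 279 in Suv39h dn. In mitotic ESCs the numbers were 10 and 17 against 26 and 38 in WT, and 7 and 32 against 9 and 36 in Suv39h dn. The log2 ratio was −0.71 and −0.58 in asynchronous WT, −0.50 and −0.25 in asynchronous Suv39h dn, −1.02 and −0.80 in mitotic WT, and −0.01 and 0.19 in mitotic Suv39h dn. In both preparations both Suv39h dn values lay above both WT values.

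The means were −0.14 ± 0.30 in Suv39h dn and −0.78 ± 0.19 in WT (SD, n = 4 each), a difference of 0.64 with p = 0.0556 by the same exact permutation test, which is the smallest p it can give and does not pass 0.05. The difference was 0.27 in asynchronous and 1.00 in mitotic ESCs. On autosomes alone, an alternative chosen after seeing the data, it fell to 0.29 with p = 0.111 by the exact permutation test, and the asynchronous genotypes overlapped. There the sets held 1770 and 2218 regions, and the difference was 0.12 in asynchronous and 0.46 in mitotic ESCs.

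**Figure D4:**
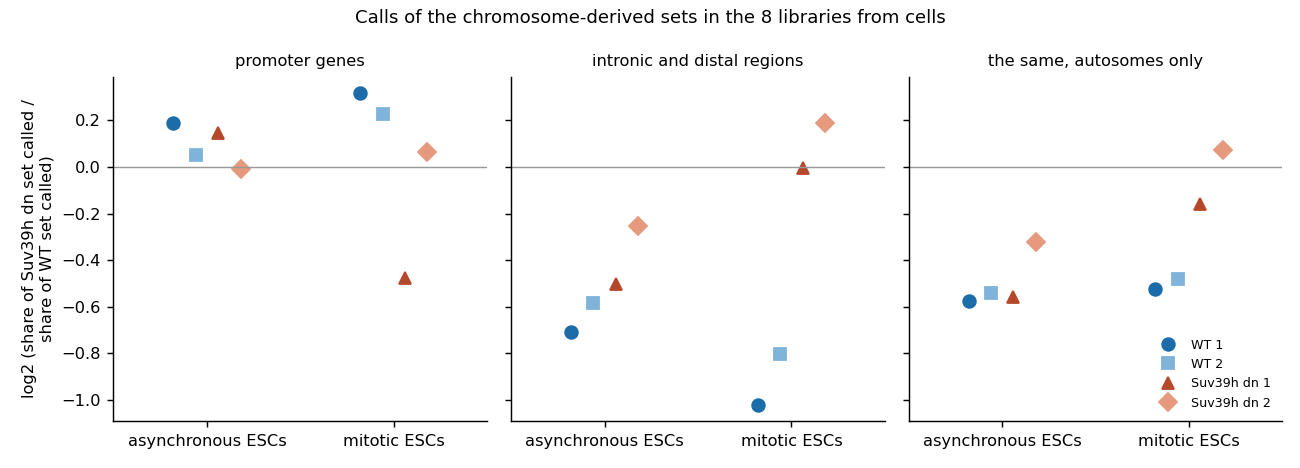
Log2 ratio of the share of the Suv39h dn-only set called to the share of the WT-only set called (vertical axis) in each of the 8 libraries from asynchronous and mitotic ESCs, for promoter genes, for intronic and distal regions, and for those regions on autosomes. Each point is 1 library; in the middle panel both Suv39h dn points lie above both WT points in each preparation, and with autosomes alone they do so in mitotic ESCs and overlap in asynchronous ESCs.

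The members were then counted by chromosome. Chromosome 12 held 20 Suv39h dn-only and 5 WT-only promoter genes of 643, which is 3.11% and 0.778%, and 69 Suv39h dn-only and 42 WT-only regions of 2799. The 5 WT-only genes, named after their values had been seen, were Tunar, Klhl29, Kif26a, Chga and Atxn3. Chromosomes 15 and 16 each held 8 Suv39h dn-only and 21 WT-only promoter genes, with 59 and 115 and with 50 and 94 regions. Chromosome 8 held 157 Suv39h dn-only and 290 WT-only regions, and Y held 22 and 78. The mixed pairs held 34 to 75 regions on chromosome 12, 48 to 138 on 15, 38 to 156 on 16 and 135 to 381 on 8, so both genotype counts lay within the mixed range on these 4 chromosomes. On Y they held 8 to 43, below the WT-only count.

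The share of all peaks of a library that lay on a chromosome was compared as well. Chromosome 12 held 2.38% and 2.36% of peaks in WT against 3.41% and 3.34% in Suv39h dn. Chromosome 15 held 4.18% and 4.27% in WT against 3.43% and 3.68% in Suv39h dn, and chromosome 16 held 3.99% and 3.81% against 3.39% and 3.14%. Y held 1.87% and 1.5% in WT against 0.925% and 0.742% in Suv39h dn. With chromosome 9, at 4.83% and 4.88% in WT against 5.05% and 5.00% in Suv39h dn, these were the 5 of 21 chromosomes whose genotypes did not overlap in sorted chromosomes. For each of the 5, p was 0.333 by the exact permutation test, the smallest that 6 arrangements give. In asynchronous ESCs 7 chromosomes did not overlap (1, 2, 3, 11, 14, X and Y) and in mitotic ESCs 4 did not (1, 11, 12 and 18), so sorted chromosomes did not stand out by this number. On chromosome 8 the genotypes overlapped, with 9.81% and 10.7% in WT against 8.59% and 10.3% in Suv39h dn.

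In asynchronous ESCs chromosome 12 held 4.24% and 4.20% of peaks in WT against 4.12% and 4.24% in Suv39h dn, so the genotypes overlapped. Chromosomes 15 and 16 overlapped too. Y held 0.219% and 0.241% in WT against 0.331% and 0.591% in Suv39h dn, the opposite order to that on sorted chromosomes. The sorting gate and the number of copies of each chromosome in a preparation were not measured in these files, and their part in the result was not tested.

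**Figure D5:**
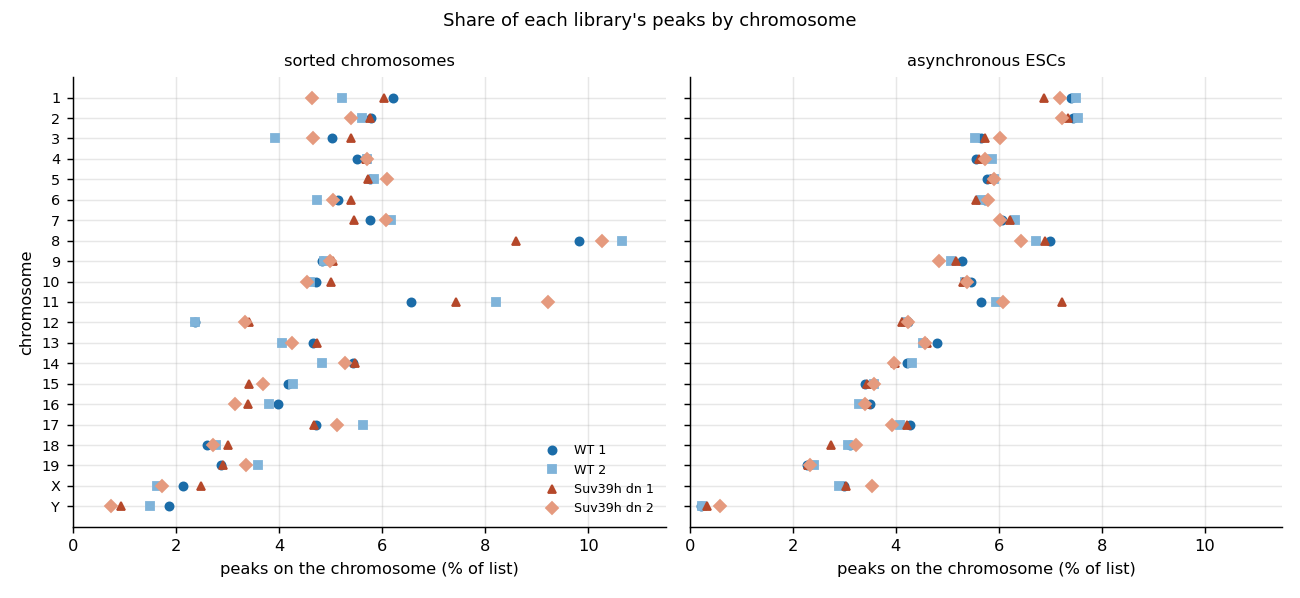
Share of the peaks of a library that lie on each chromosome (horizontal axes, percent of the list) in sorted chromosomes (left) and asynchronous ESCs (right), 1 point per library. On the left chromosomes 9, 12, 15, 16 and Y separate the WT from the Suv39h dn points, and on the right 7 chromosomes do, among them Y in the opposite order.

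Base composition was compared with the mixed pairs as a description. The median GC content of the 151-bp summit windows was 59.6% for Suv39h dn-only and 61.6% for WT-only promoters, 59.6% to 61.6% for the mixed pairs and 62.3% for promoters called in all 4 libraries. The median number of CpGs per window was 7 for Suv39h dn-only and 9 for WT-only promoters, 6 to 8 for the mixed pairs and 9 over all called promoters. The median ratio of observed to expected CpGs was 0.572 and 0.631, against 0.519 to 0.620 in the mixed pairs. It was 0.631 over all called promoters and 0.712 for those called in all 4 libraries. The WT-only promoters thus lay above the mixed range on both CpG measures, at the same medians as all called promoters. Among intronic regions the medians were 55.6% and 56.3%, and among distal regions 57.0% in both sets. Sequence marked as repeat in the reference made up most of the window for 46.6% of Suv39h dn-only and 48.8% of WT-only distal regions, against 41.2% to 54.7% in the mixed pairs, 43.5% of all distal regions and 61.8% of those called in all 4 libraries.

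Tandem repeats were measured as the highest share of bases in a 301-bp window that equal the base a fixed shift of 5 to 150 bp further on, a measure chosen after the sequences had been seen. The 20 named promoters reached at most 39.5%, against a median of 35.5% over called promoters. Of the 20 named regions, 6 reached 70%, against 2.66% of all intronic and distal regions. Among them were the Med23 intron with 98.5% at a shift of 28 bp and the Cdca7l intron with 73.4%. The others were the named Suv39h dn-only regions of Mid1, of which the one shown above reached 86.8%, and those near Gm47283 on Y. The windows of these X and Y regions have exact copies on the other chromosome, so they are not independent. The Efl1 region reached 57.0% and the Mfng region 58.1%. The share of members at 70% or more was 9.24% in the strongest 184 of the 1841 Suv39h dn-only regions and 2.60% in the rest, and 8.51% in the strongest 235 of 2357 and 4.43% in the rest for WT. In the mixed pairs, cut in the same proportion, the strongest regions held between 0.847% and 12.7%, and of all regions called in all 4 libraries 11.9% reached 70%.

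Short motifs were searched on both strands of the same 151-bp windows, and a match is a description of the letters alone. The Esrrb half-site extended by 3 bases, TNAAGGTCA, was in 0 of 349 Suv39h dn-only and 3 of 522 WT-only promoter windows, against 0.366% of all called promoters. Among intronic regions it was in 1.16% and 1.19% of the Suv39h dn-only and WT-only windows, against 0.997% of all, and among distal regions in 0.749% and 0.280%, against 0.826%. The distal mixed pairs held it in 0.429% to 1.04%, and distal regions called in all 4 libraries in 0.317%. The 0.280% rests on 4 of 1430 windows. The SP/KLF motif GGGCGG was in 20.1% of Suv39h dn-only and 23.2% of WT-only promoter windows, against 24.4% of all called promoters and 28.4% of those called in all 4 libraries. The NFY motif CCAAT was in 18.3% and 13.2%, against 15.3% of all and 9.74% to 20.4% in the mixed pairs. The windows shown for Mid1 and Gm47283 in Suv39h dn each held 2 matches of GGGCGG, and 4.55% of all intronic and 5.66% of all distal windows hold at least 1.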

How the data were processed

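ATAC-seq was done on sorted chromosomes, mitotic ESCs and asynchronous ESCs, and 12 peak lists were used, 4 of them from sorted chromosomes. Per the labels and methods, the authors demultiplexed reads with bcl2fastq 2.20.0, trimmed them with Trim Galore 0.4.4, aligned them to mm10 with Bowtie2 2.2.9 and handled them with SAMtools 1.2. Duplicates and mitochondrial reads were removed, and MACS2 called peaks in each library on nucleosome-free fragments. The deposited lists give per peak a score, a fold (a ratio of pileup to local background), a −log10 p and a −log10 q, with no total depth. No peak has a q-value over 0.05.

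Fragments at a summit were recovered from fold and −log10 p within 0.001. Start sites came from GENCODE vM21 on GRCm38. Regions of 1 bp overlap or more were merged. The number of promoter genes and the carry-over to cells were tested by exact permutation of genotypes over libraries, and code was tested on simulated data. Named genes were the 10 promoters and 5 regions per class and direction that ranked highest by the lower −log10 p percentile of the 2 libraries, the 3 host genes with most regions per direction (ties kept), genotype-only members of lists of at most 60 genes, and the study's factor genes; others are said to be named after their values were seen. A few genes that the rule names are not reported here. The members and lists were chosen with earlier results of these data known. The difference between libraries 1 and 2 in WT correlated with that in Suv39h dn at r = 0.0256 across 21938 genes. WT 2 and Suv39h dn 2 nevertheless shared the most promoter genes of any pair, 60.5% in the deposited lists. At a q-value of 1e-05 or lower they shared 32.3%, against 16.1% to 22.0% for the other pairs. Start site distance, peak overlap, q-value, list length, single libraries and a replicate block were varied. Counts cover called peaks only. Analysis used Python 3.11.15, numpy 2.4.6, scipy 1.17.1, pandas 2.3.3 and matplotlib 3.10.9.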

Additional observations from a re-analysis of the deposited data

Results flagged for a closer look

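The share of peaks on chromosome 12 differed in opposite directions between genotypes in 2 preparations. On sorted chromosomes both Suv39h dn libraries lay above both WT libraries, with a log2 difference of 0.51, and in mitotic ESCs both lay below, with −0.17. The share on Y went the other way round. On sorted chromosomes both Suv39h dn libraries lay below both WT libraries, with a log2 difference of −1.02, and in asynchronous ESCs both lay above, with 0.94. The difference between preparations was not tested in either case. With 21 chromosomes looked at and 2 libraries per group, no single chromosome can pass a threshold of 0.05.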

How the results depend on the processing

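The difference in the number of promoter genes per library turned with the list length, the threshold and the library left out, and its p never reached 0.05. It was 0.0014 with equal list lengths, 0.12 at a q-value of 1e-05 or lower, and −0.28 to 0.19 with 1 library left out, where 0.19 came without WT 2. At that q-value the Suv39h dn-only and WT-only counts were 149 and 166 promoter genes, 56 and 68 intronic regions, and 160 and 108 distal regions, by construction fewer. The mixed pairs held 40 to 784, 20 to 148 and 38 to 374. With 1 library left out a genotype needs only 1 call or the other genotype only 1 absence, so counts rise by construction. The ranges were 583 to 1694 Suv39h dn-only and 1073 to 1816 WT-only promoter genes, 994 to 10517 and 1299 to 11045 intronic regions, and 1468 to 14533 and 2062 to 14120 distal regions. The other start site distances, peak overlaps and equal list lengths kept all counts within 1.5 times.

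The carry-over of promoter genes was 0.43 at a q-value of 1e-05 or lower, the opposite direction, where the cell libraries held as few as 2 and 1 genes of the sets, and −0.40 to −0.13 with the other alternatives. The cause was not tested. The carry-over of regions was 0.29 to 0.70, the lowest on autosomes only, which was chosen after seeing the data, and could not be computed at the strict q-value because 1 library held no member. With the replicate block the 3 differences were −0.04, −0.27 and 0.64, with exact permutation p of 1, 0.125 and 0.125, and no call changed.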
